A study of Mus musculus with 13 samples.

Results

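Tnmd, Scx, Mkx, Thbs4, Comp and Cilp2 are 6 genes that mark tendon, and they were followed here in the gastrocnemius muscle of obese mice. They were taken by name from a table of 21868 genes, and all 6 were among the 12303 genes whose mean normalized count over the mice was at least 10, the level above which differences were tested. RNA came from 13 male C57BL/6N mice (C57BL/6 in the labels) that were 7 weeks old when they entered the study, were made obese on a diet with 60 kcal% fat for 15 to 17 weeks, and were then moved to chow for a treatment of 3 weeks. Vehicle-treated mice (mice 1 to 5) received phosphate-buffered saline and semaglutide-treated mice (mice 13 to 17) received semaglutide, both with a placebo. Semaglutide, a GLP-1 receptor agonist used against obesity, was given by intraperitoneal injection at 30 nM/kg per day. Semaglutide + ketone ester-treated mice (mice 19, 21 and 22) received the same injections and a ketone ester, a compound from which the body makes ketones, in the drinking water at 0.114 g/mL. All groups shared the earlier high-fat diet and the change to chow, and no group received the ketone ester without semaglutide.

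Tendon joins muscle to bone and consists mainly of collagen fibres laid down by tendon fibroblasts, the tenocytes. Scx, or scleraxis, and Mkx, or Mohawk, are transcription factors of tendon cells. Scx is a basic helix-loop-helix protein, a class of factors that binds the short DNA motif called the E-box, and it is known to act upstream of Tnmd. Tnmd encodes tenomodulin, a membrane glycoprotein of mature tenocytes. Thbs4 (thrombospondin 4), Comp (cartilage oligomeric matrix protein) and Cilp2 (cartilage intermediate layer protein 2) encode matrix proteins, and Comp and Thbs4 belong to the same thrombospondin family. A dissected gastrocnemius can carry parts of its tendon and of the junction where muscle fibres meet it, so these transcripts can come from a small share of the tissue. In such bulk RNA, fewer cells of a type and less RNA per cell cannot be told apart.

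Each library held between 15319500 and 23498200 reads counted on genes, rounded. Muscle genes were abundant in every mouse: the summed normalized counts of 10 skeletal muscle markers lay between 1631480 and 3968850, against 512 to 2996 for the 6 tendon markers. Divided by exon length, the vehicle means ran from 508 normalized counts per kilobase for Thbs4 through 90.1 for Comp, 79.7 for Tnmd, 38.8 for Scx and 17.4 for Cilp2 to 4.42 for Mkx. Of 10 cartilage markers, Matn1 and Cnmd were at 0 in all 13 mice and Acan, the aggrecan gene that defines cartilage, never exceeded 1.14 normalized counts. Of the same list, Sox9, a transcription factor of cartilage that tendon progenitors also use, averaged 54.2 with vehicle and Col9a1, a cartilage collagen, 23.2. Col2a1, another cartilage collagen, averaged 3.97 with vehicle, 1.69 with semaglutide and 8.47 with semaglutide + ketone ester, and never exceeded 13.3. Among bone markers Bglap (osteocalcin) was at 0 in all mice and Alpl, an alkaline phosphatase of bone and other tissues, averaged 292 with vehicle. Dmp1, also a bone marker, averaged 4.82 with vehicle and never exceeded 12.2. Vehicle mouse 1 stood apart in tendon and connective tissue genes. Semaglutide mouse 13 was the highest of its group in 5 of the 6 members. Some results are therefore also given without 1 or both of these mice.

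Semaglutide-treated mice had lower normalized counts of 4 of the 6 tendon markers than vehicle-treated mice. Tnmd was 10.8-fold lower, Cilp2 7.45-fold, Comp 6.59-fold and Thbs4 2.40-fold, while Scx and Mkx did not pass the test. Over all genes, 13.9% were lower and 12.5% were higher in this comparison, and no member was higher. The median log2 fold change of the 6 members was -1.99, against -0.0029 over all genes tested. Differences were tested with limma on log2(normalized count + 1) across all 12303 genes, with p-values adjusted by the Benjamini-Hochberg method and called at an adjusted p under 0.05. On this scale the change of genes with low counts is understated.

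Tnmd, the marker of mature tenocytes, lies on the X chromosome at chrX:133850980-133865577 (GRCm38, plus strand, 7 exons). Its normalized count was 26.3, 139.65, 94.0, 147 and 132 in vehicle mice 1 to 5 and 27.1, 9.02, 10.0, 1.94 and 4.48 in semaglutide mice 13 to 17. All semaglutide-treated mice except mouse 13 were below every vehicle-treated mouse, and mouse 13 lay just above vehicle mouse 1. The means were 108 ± 49.95 (SD, n = 5) and 10.5 ± 9.83 (SD, n = 5), a log2 difference of -3.43 (SE 0.55, limma adjusted p = 7.1e-04). The lowest value, in semaglutide mouse 16, rested on 2 reads.

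Cilp2, which encodes a secreted matrix protein, lies at chr8:69880369-69887687 (GRCm38, minus strand, 8 exons). It was at 13.7, 107, 69.3, 109 and 75.7 in vehicle mice 1 to 5 and at 17.4, 15.8, 4.44, 2.91 and 5.22 in semaglutide mice 13 to 17. Again 4 of the 5 vehicle-treated mice were far above the semaglutide-treated mice and vehicle mouse 1 fell among them. The log2 difference was -2.90 (SE 0.55, limma adjusted p = 0.0021), between means of 74.9 ± 38.6 and 9.15 ± 6.87 (SD, n = 5 each).

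Thbs4, the most abundant member, lies at chr13:92751590-92794818 (GRCm38, minus strand, 22 exons). Its normalized counts were 704, 1965, 1661, 1813 and 2205 in vehicle mice 1 to 5 and 1027, 817, 549, 571 and 436 in semaglutide mice 13 to 17. With at least 494 reads in every library, it was the member least limited by counting error. The difference was smaller than for Tnmd or Cilp2, -1.26 on the log2 scale (SE 0.29, limma adjusted p = 0.0057), with means of 1669 ± 576 and 680.04 ± 239 (SD, n = 5 each).

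Comp, which encodes a pentameric glycoprotein of tendon and cartilage matrix, lies at chr8:70373558-70382066 (GRCm38, plus strand, 20 exons). The counts were 11.4, 312, 241, 304 and 468 in vehicle mice 1 to 5 and 101, 38.3, 15.6, 15.5 and 8.95 in semaglutide mice 13 to 17. Comp had the widest spread of the members in both groups, with vehicle mouse 1 below 4 of the 5 semaglutide-treated mice. The means were 267 ± 166 and 35.8 ± 37.9 (SD, n = 5 each), a log2 difference of -2.72 (SE 0.85, limma adjusted p = 0.029). This call was lost when any 1 of vehicle mice 2 to 5 or of semaglutide mice 15 to 17 was left out (limma adjusted p from 0.059 to 0.077).

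**Figure D1:**
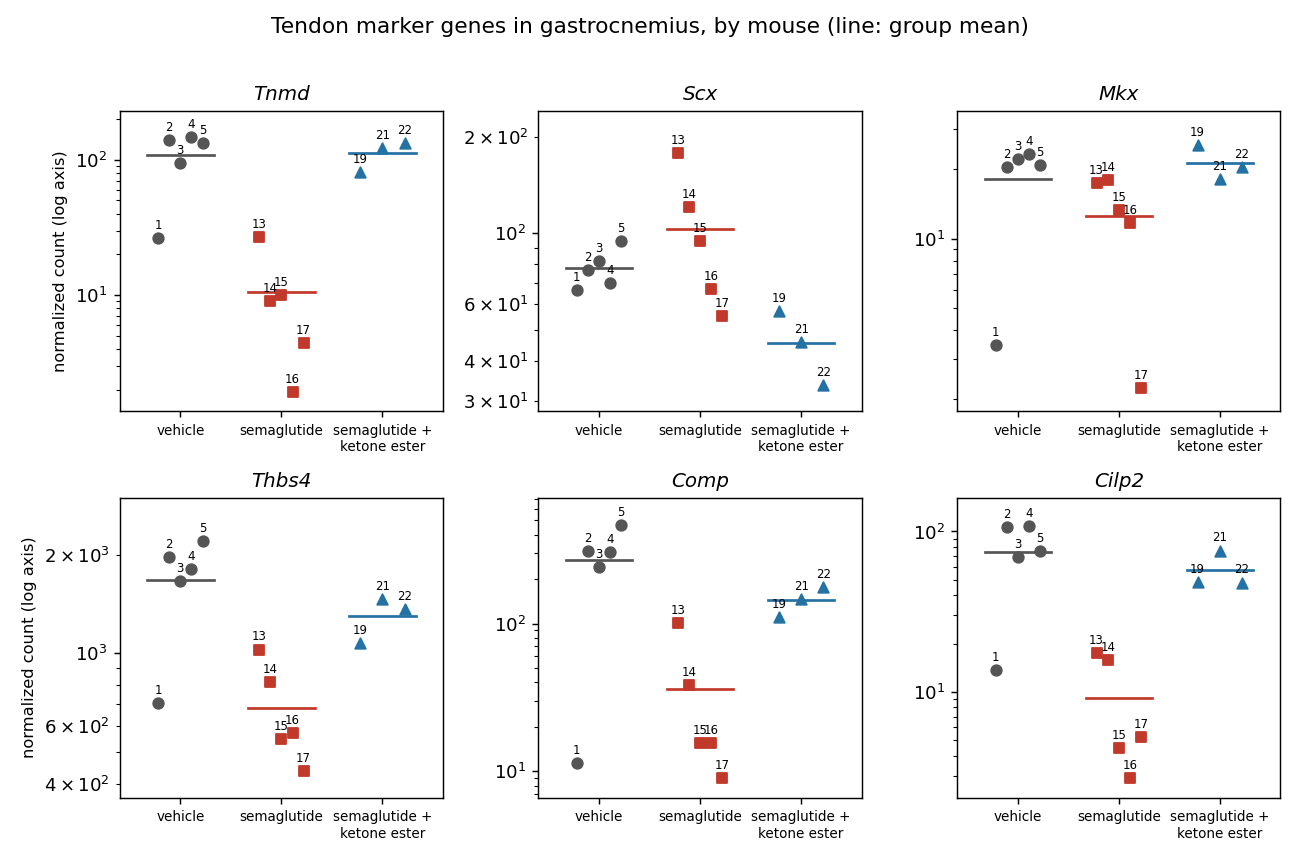
Normalized count (log axis) of each tendon marker gene in each of the 13 mice, by treatment, with mouse numbers beside the points and a line at each group mean. In Tnmd, Thbs4, Comp and Cilp2 the semaglutide-treated mice lie below vehicle mice 2 to 5 and below all 3 semaglutide + ketone ester-treated mice, vehicle mouse 1 lies among or near the semaglutide-treated mice, and Scx has a different order.

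Tnmd and Thbs4 fell together, and the sequence just before their start sites is shown because Scx binds E-boxes. Promoter sequences from RefSeq (GRCm38.p6) were matched for 3 of the 6 members, Tnmd, Thbs4 and Cilp2. The E-box was searched as CANNTG in the 250 bases before the RefSeq start, a motif that reads the same on both strands. It was present in 66.2% of 32841 promoter windows of that length. Below, capitals mark an E-box. The Thbs4 window (chr13:92794819-92795068, minus strand) held 1, CAAATG, which begins 115 bases upstream of the start. The stretch before Tnmd (chrX:133850758-133850979, plus strand, 222 bases up to the annotated start of the gene) held 0. Cilp2 had 1, CAGTTG, 156 bases upstream of its RefSeq start. That window (chr8:69887393-69887642, minus strand) lies inside the gene as annotated by GENCODE, which ends at 69887687. A match is a description of the letters and not of binding.
Thbs4: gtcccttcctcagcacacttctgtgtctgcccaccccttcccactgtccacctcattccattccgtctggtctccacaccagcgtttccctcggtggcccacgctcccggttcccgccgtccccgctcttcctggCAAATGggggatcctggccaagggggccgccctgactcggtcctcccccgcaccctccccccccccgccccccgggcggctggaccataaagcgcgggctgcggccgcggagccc
Tnmd: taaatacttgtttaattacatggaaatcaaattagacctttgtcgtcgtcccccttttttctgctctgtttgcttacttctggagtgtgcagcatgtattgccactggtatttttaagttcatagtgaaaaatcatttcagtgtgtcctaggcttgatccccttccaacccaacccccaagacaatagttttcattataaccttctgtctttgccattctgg

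Scx, the factor placed upstream of Tnmd, did not follow Tnmd under semaglutide. Its normalized counts were 66.4, 77.0, 81.7, 69.9 and 94.3 in vehicle mice 1 to 5 and 178, 121, 94.4, 67.0 and 55.2 in semaglutide mice 13 to 17. The semaglutide-treated mice lay on both sides of the vehicle-treated mice, with 3 of 5 above all of them and 1 below all of them. The means were 77.8 ± 11.0 and 103 ± 48.9 (SD, n = 5 each), and the log2 difference was 0.29 (SE 0.27, limma adjusted p = 0.46). Without semaglutide mouse 13 the log2 difference was 0.060 (limma adjusted p = 0.86).

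With means of 18.1 ± 8.26 and 12.5 ± 6.35 (SD, n = 5 each), the Mohawk gene Mkx was the least abundant member. Its normalized counts were 3.43, 20.47, 22.3, 23.3 and 21.0 in vehicle mice 1 to 5 and 17.4, 18.0, 13.3, 11.7 and 2.24 in semaglutide mice 13 to 17. Vehicle mice 2 to 5 were above all semaglutide-treated mice, but vehicle mouse 1 was below 4 of them. The log2 difference was -0.50 (SE 0.54, limma adjusted p = 0.53). Counting limited this gene most: the libraries held 3 to 21 reads of it, and 2 of the 13 held no more than 3.

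Vehicle mouse 1 was the lowest vehicle-treated mouse in all 6 members. Its level was 28.9-fold below the mean of the other 4 vehicle-treated mice for Comp, 6.57-fold for Cilp2, 6.33-fold for Mkx, 4.87-fold for Tnmd, 2.72-fold for Thbs4 and 1.22-fold for Scx. Over all genes tested, 18.9% were lower in this mouse than in every other vehicle-treated mouse. Of 20 other tendon genes listed as such, 19 were, and their median log2 difference from the other vehicle-treated mice was -1.22. Being below every other vehicle-treated mouse also held for 6 of 8 fibrillar collagen genes, 7 of 10 fibroblast markers and 5 of 5 immune markers, and for 0 of 10 skeletal muscle markers and 0 of 5 endothelial markers. Slow muscle markers were higher in it, by a median of 1.02 on the log2 scale over 8 genes. What set this mouse apart was not tested.

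With all mice, the 2 groups overlapped in every member, whereas 7.45% of all genes were lower in every semaglutide-treated mouse than in any vehicle-treated mouse. Against vehicle mice 2 to 5, 5 of the 6 members (all but Scx) were lower in every semaglutide-treated mouse, compared with 8.84% of all genes. Vehicle mouse 1 was singled out for its low values in these same members. The larger count and the smaller p-values without it follow in part from that choice. Without vehicle mouse 1 the same 4 members were lower by limma, with log2 differences of -3.87 for Tnmd (SE 0.49, adjusted p = 2.5e-04), -3.42 for Cilp2 (SE 0.43, adjusted p = 2.5e-04), -3.66 for Comp (SE 0.52, adjusted p = 5.2e-04) and -1.55 for Thbs4 (SE 0.21, adjusted p = 3.8e-04). Mkx moved to -0.98 and still did not pass (SE 0.45, limma adjusted p = 0.13). In that fit 11.6% of all genes were lower.

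With the ketone ester added to semaglutide, Tnmd, Cilp2 and Thbs4 were higher than under semaglutide alone and Scx was lower. These 3 higher and 1 lower of 6 members compare with 10.0% of all genes higher and 10.7% lower. Comp and Mkx did not pass the test. In 5 of the 6 members every semaglutide + ketone ester-treated mouse was above every semaglutide-treated mouse, which held for 9.96% of all genes. The median log2 fold change of the members was 1.74, against -2.4e-04 over all genes. The same semaglutide-treated mice enter this comparison and the one with vehicle, so opposite signs in the 2 comparisons are not independent of each other.

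Tnmd stood at 81.4, 122 and 132 in semaglutide + ketone ester mice 19, 21 and 22, all far above the 27.1 of the highest semaglutide-treated mouse. The mean was 112 ± 26.9 (SD, n = 3), a log2 difference from semaglutide of 3.67 (SE 0.64, limma adjusted p = 0.0018), or 12.7-fold. Cilp2 was at 48.6, 76.1 and 48.1, with a mean of 57.6 ± 16.0 (SD, n = 3) and a log2 difference of 2.77 (SE 0.64, limma adjusted p = 0.0084), or 6.84-fold. These were the 2 members called in both comparisons under all 26 other settings tried, each mouse left out in turn included.

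Thbs4 was at 1072, 1464 and 1365 in semaglutide + ketone ester mice 19, 21 and 22. Mouse 19 was the lowest of them and lay close to semaglutide mouse 13, at 1027. The log2 difference of 0.99 (SE 0.33), 1.99-fold, passed narrowly (limma adjusted p = 0.046). It did not pass when vehicle mouse 2, 3 or 4, semaglutide mouse 15, 16 or 17 or any semaglutide + ketone ester-treated mouse was left out (limma adjusted p from 0.055 to 0.15).

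Comp was at 111, 146 and 178 in these 3 mice, again all above semaglutide mouse 13, the highest of its group at 101. The log2 difference of 2.49 (SE 0.98) did not pass (limma adjusted p = 0.084). Without vehicle mouse 1 the same difference passed (limma adjusted p = 0.0099), as it did without semaglutide mouse 13 (2.98, limma adjusted p = 0.022).

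Mkx was at 25.5, 18.1 and 20.4. All 3 values were above the highest semaglutide-treated mouse, at 18.0, but by a margin of less than 1 read. The log2 difference was 0.94 (SE 0.63, limma adjusted p = 0.31).

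**Figure D2:**
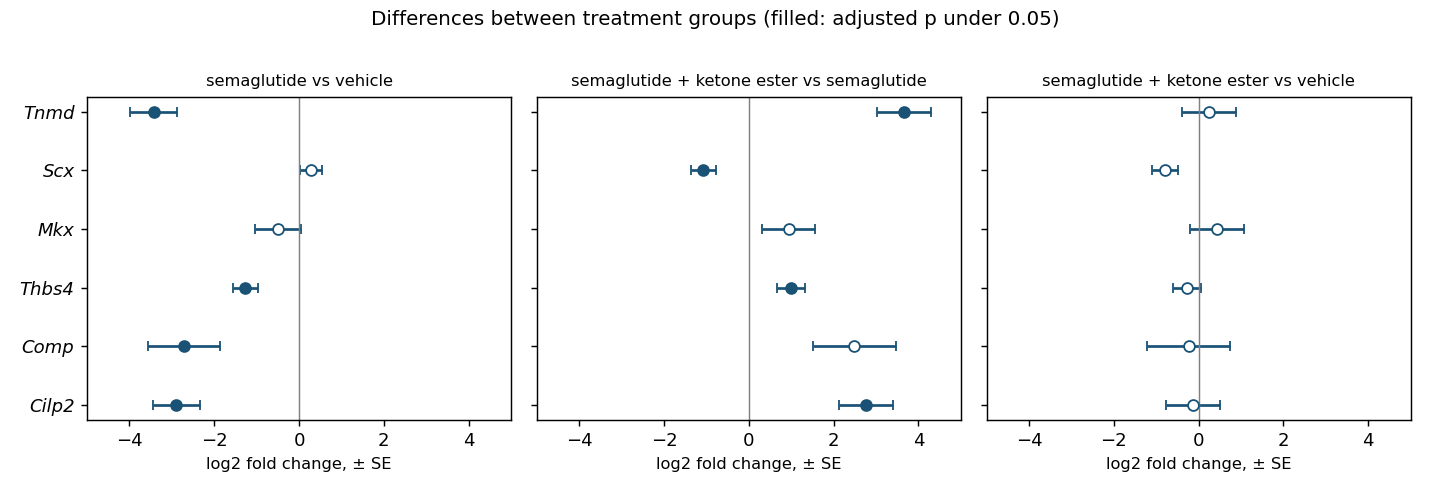
Log2 fold change ± SE of each tendon marker gene (limma, 13 mice) in the 3 comparisons, with filled points where the adjusted p was under 0.05. Tnmd, Cilp2, Thbs4 and Comp are negative for semaglutide against vehicle and positive for semaglutide + ketone ester against semaglutide, Scx is negative in the second comparison, and no point is filled in the third.

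Scx was the member that fell when the ketone ester was added. It was at 57.1, 45.9 and 33.6 in semaglutide + ketone ester mice 19, 21 and 22, against 55.2 to 178 with semaglutide alone, and averaged 45.5 ± 11.7 (SD, n = 3). The groups overlapped only at semaglutide mouse 17, at 55.2, and semaglutide + ketone ester mouse 19. The log2 difference was -1.07 (SE 0.31, limma adjusted p = 0.025), or 2.10-fold lower. It did not pass without semaglutide mouse 14 (limma adjusted p = 0.052) or without semaglutide + ketone ester mouse 21 (0.073) or 22 (0.12). Without semaglutide mouse 13 it still passed, at -0.84 (limma adjusted p = 0.019).

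Scx lies at chr15:76457452-76459458 (GRCm38, plus strand), wholly inside an intron of Bop1, a ribosome biogenesis gene on the opposite strand, and shares no exonic base with it. The libraries were stranded mRNA libraries, but whether reads were counted by strand is not given in the sources used here. If strand was ignored, reads from unspliced Bop1 RNA and from Scx may not be told apart. The means of Bop1 had the same order as those of Scx, 495 ± 33.1 with vehicle (SD, n = 5), 623 ± 45.7 with semaglutide (SD, n = 5) and 447 ± 60.8 with both agents (SD, n = 3). Semaglutide differed from vehicle by 0.33 on the log2 scale (SE 0.088, limma adjusted p = 0.014), and adding the ketone ester by -0.49 (SE 0.10, limma adjusted p = 0.0050). Over the 13 mice the log2 values of Scx and Bop1 had a Pearson's r of 0.65 and a Spearman's rho of 0.51. Without the 2 mice farthest from the Scx median, semaglutide mouse 13 and semaglutide + ketone ester mouse 22, r was 0.41. The part of Bop1 reads in the Scx values was not tested.

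Between semaglutide + ketone ester-treated and vehicle-treated mice no member passed the test, and 0.366% of all genes did in either direction. By limma 0 of 6 were called and 1 of 6, Scx, had an unadjusted p under 0.05, and edgeR and DESeq2 also called 0. The log2 differences were 0.24 for Tnmd (SE 0.64), -0.12 for Cilp2 (SE 0.64), -0.27 for Thbs4 (SE 0.33), -0.23 for Comp (SE 0.98) and 0.43 for Mkx (SE 0.63). These values rested in large part on vehicle mouse 1. Without it they were -0.20 for Tnmd, -0.64 for Cilp2, -0.56 for Thbs4, -1.17 for Comp and -0.037 for Mkx, and still none passed (limma adjusted p from 0.51 to 0.995). Scx was lower in all 3 semaglutide + ketone ester-treated mice than in any vehicle-treated mouse, as were 5.88% of all genes, with a log2 difference of -0.78 (SE 0.31, limma adjusted p = 0.37).

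The order of the group means was therefore not shared by all members. For Tnmd and Mkx it ran from semaglutide + ketone ester through vehicle to semaglutide, for Thbs4, Comp and Cilp2 from vehicle through semaglutide + ketone ester to semaglutide, and for Scx from semaglutide through vehicle to semaglutide + ketone ester. The separate order of Tnmd and Mkx rested on vehicle mouse 1: without it their vehicle means were 128 and 21.7, above the 112 and 21.4 with both agents, the order of Thbs4, Comp and Cilp2. For Scx, the log2 difference of semaglutide from vehicle was 0.29 with all mice and 0.060 without semaglutide mouse 13. With all mice, the 2 groups with the highest means did not pass the test against each other in any member. Below them, the lowest group did not pass against its neighbour in Mkx, in Comp (semaglutide against semaglutide + ketone ester) or in Scx (semaglutide + ketone ester against vehicle). By the criterion in the methods of the study, an unadjusted p under 0.05 over the 3 groups with at least a 1.5-fold range of the means, 4 of 6 members were altered (Tnmd, Thbs4, Comp and Cilp2), compared with 16.1% of all genes.

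Thbs4, Comp, Cilp2 and Tnmd also rose and fell together from mouse to mouse. Over the 13 mice, Pearson's r of the log2 values was 0.98 for Thbs4 with Comp, 0.96 for Tnmd with Cilp2, 0.95 for Thbs4 with Cilp2, 0.92 for Comp with Cilp2, 0.92 for Tnmd with Thbs4 and 0.89 for Tnmd with Comp. Spearman's rho for these 6 pairs lay between 0.88 and 0.97. These are descriptions over mice of 3 treatments that share libraries, so the group means were also subtracted, after which r was 0.85 to 0.98. Without the 2 mice farthest from the median of the first gene, the 6 values lay between 0.85 and 0.97.

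Mkx followed the 4 matrix and membrane genes less closely, with r between 0.61 and 0.80. Scx did not follow the others over all mice, with r between -0.24 and 0.14. After subtracting group means, r of Scx with the other 5 was between 0.57 and 0.64, but the groups were not alike in this. In the semaglutide group, mouse 13 was highest and mouse 17 lowest in both Scx and Thbs4. In the semaglutide + ketone ester group the order was opposite for Tnmd and Comp: mouse 22 was lowest in Scx (33.6) and highest in both, and mouse 19 was highest in Scx (57.1) and lowest in both.

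**Figure D3:**
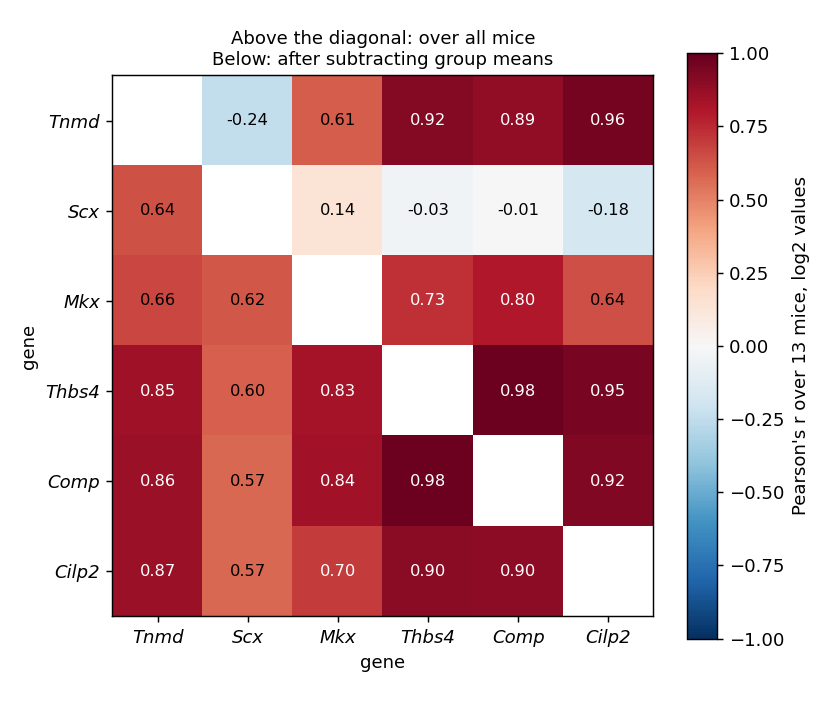
Pearson's r between the log2(normalized count + 1) values of each pair of tendon marker genes over 13 mice, above the diagonal as measured and below it after subtracting group means. Scx pairs lie between -0.24 and 0.14 above the diagonal and between 0.57 and 0.64 below it.

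Mkx lies at chr18:6934518-7004780 (GRCm38, minus strand, 8 exons), and the annotation places AC148004.2, a transcript on the same strand, over 2104 of its bases. Reads there could be counted for either. Comp and Cilp2 share chromosome 8, and the other 4 members lie on different chromosomes.

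Of 20 other genes of the tendon matrix, 11 were lower and 0 higher under semaglutide than in vehicle-treated mice and 9 did not pass. Over all genes 13.9% were lower. The median log2 fold change of the 20 was -0.78. Without vehicle mouse 1, 17 of the 20 were lower, against 11.6% of all genes in that fit. In 19 of the 20 that mouse was the lowest vehicle-treated mouse, so the larger count follows in part from leaving it out. With all mice, 11 were lower by edgeR and 14 by DESeq2, and 0 were higher by either. The gene lists used here and below were chosen with earlier results of these data known, so their counts are descriptions only. Kera (keratocan), a small leucine-rich proteoglycan, averaged 106 ± 54.7 with vehicle (SD, n = 5), 2.72 ± 3.62 with semaglutide (SD, n = 5) and 151 ± 39.7 with both agents (SD, n = 3). Its log2 difference between semaglutide and vehicle was -5.15 (SE 0.62, limma adjusted p = 9.8e-05). Chad, which encodes the collagen-binding protein chondroadherin, had a log2 difference of -3.74 (SE 0.89). It was -2.85 (SE 0.69) for Wif1, a secreted Wnt inhibitor, and -0.64 (SE 0.16) for Aspn (asporin). Among those that did not pass, Lox (lysyl oxidase) and Thbs1 had log2 differences of 0.07 and 0.32.

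When the ketone ester was added, 7 of the 20 were higher and 0 lower than under semaglutide alone, against 10.0% of all genes higher. The other 13 did not pass, and the median log2 fold change was 0.72. Lox, Thbs1 and Thbs2, which did not pass, had negative log2 differences of -0.81, -1.05 and -0.11. Kera again had the largest log2 difference in this list, 5.87 (SE 0.72), and Cilp, the paralog of Cilp2, was higher by 1.496 (SE 0.32). The proteoglycan genes Ogn (osteoglycin) and Bgn (biglycan) were higher by 1.13 (SE 0.30) and 0.93 (SE 0.25). Between semaglutide + ketone ester and vehicle 0 of the 20 were called by limma, edgeR or DESeq2, and 0 had an unadjusted p under 0.05 in limma.

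All 8 fibrillar collagen genes were lower under semaglutide, against 13.9% of all genes, with a median log2 fold change of -1.75. These genes encode the fibres of tendon and of the connective tissue within muscle. The log2 difference was -3.14 (SE 0.35) for Col3a1, -3.02 (SE 0.40) for Col1a1, -2.88 (SE 0.40) for Col1a2 and -1.26 (SE 0.16) for Col5a3. Against semaglutide alone, all 8 were higher with the ketone ester added, with a median of 1.97, and 10.0% of all genes were higher. By edgeR and by DESeq2, 7 of the 8 passed in each comparison. Col1a1 was at 1472 ± 483 (SD, n = 5), 199 ± 142 (SD, n = 5) and 1476 ± 687 (SD, n = 3) in the vehicle, semaglutide and semaglutide + ketone ester groups.

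Collagens and matrix genes are not particular to tendon, and markers of fibroblasts and fibro-adipogenic progenitors, the connective tissue cells between muscle fibres, moved with the members. Of 10 such markers 7 were lower under semaglutide than in vehicle-treated mice, against 13.9% of all genes. With the ketone ester 5 were higher than under semaglutide alone, against 10.0% of all genes. Mfap5, Dpt, Gsn and Pi16 had log2 differences of -1.04, -1.54, -1.08 and -1.77 in the first comparison. None of the 10 was at 0. Their summed normalized count ran from 11452 to 22253 with vehicle, from 7737 to 11569 with semaglutide and from 11270 to 16441 with both agents. Their part in the results for the members was not tested.

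**Figure D4:**
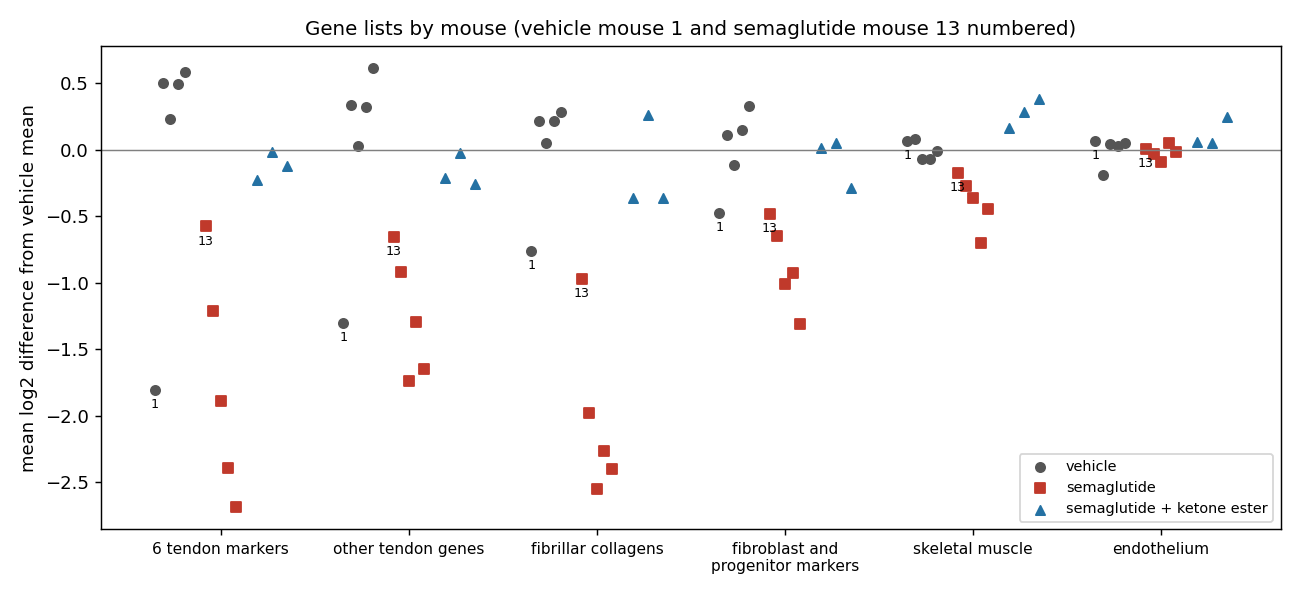
Mean log2 difference from the vehicle mean, per mouse, for the 6 tendon markers and 5 other gene lists, with vehicle mouse 1 and semaglutide mouse 13 numbered. In the tendon, collagen and fibroblast lists vehicle mouse 1 is the lowest vehicle-treated mouse and semaglutide mouse 13 the highest semaglutide-treated mouse, and the endothelial list stays between -0.19 and 0.24 in all mice.

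Apart from red blood cell genes, markers of the other tissues listed had smaller median log2 fold changes than the members in both comparisons. Of all genes, 12.5% were higher and 13.9% lower under semaglutide than with vehicle. With the ketone ester added, 10.0% were higher and 10.7% lower than under semaglutide alone. Of 5 endothelial markers 0 were called between semaglutide and vehicle by limma, edgeR or DESeq2 (1 higher and 1 lower at an unadjusted p under 0.05), and 2 were higher with the ketone ester added. Of 10 skeletal muscle markers, 1 was higher and 1 lower under semaglutide, and 5 were higher and 1 lower with the ketone ester than without it, led by Pvalb (parvalbumin), at 1.88 on the log2 scale (SE 0.35). By edgeR 1 was higher and 1 lower in the first comparison, and 6 and 1 in the second. By DESeq2 these counts were 1 and 4, and 7 and 1. Summed over the 10, they ran from 2629320 to 3171330 with vehicle, from 1631480 to 2882470 with semaglutide and from 3333570 to 3968850 with both agents, and their part in the results for the members was not tested. Peripheral nerve, adipocyte and immune markers had 0 calls by limma in either comparison. At an unadjusted p under 0.05 there was 1, an adipocyte gene lower under semaglutide, edgeR called 0, and DESeq2 called 1 adipocyte gene higher. Of 8 slow muscle markers 1 was lower under semaglutide, and the 1 bone marker tested, Alpl, was lower by limma as well. Alpl averaged 292 ± 15.4 with vehicle (SD, n = 5), 175 ± 39.4 with semaglutide (SD, n = 5) and 325 ± 67.7 with both agents (SD, n = 3). Its log2 difference was -0.76 (SE 0.15, limma adjusted p = 0.0027) under semaglutide and 0.90 (SE 0.17, limma adjusted p = 0.0033) when the ketone ester was added, and its part in the results for the members was not tested. The cartilage list had 2 genes above the minimum level, Sox9 and Col9a1, and neither passed (limma adjusted p = 0.42 and 0.56 for semaglutide against vehicle).

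Red blood cell genes, among them the globins, separated the mice in another way. Between semaglutide and vehicle 0 of the 5 were called by limma, edgeR or DESeq2, but 5 were lower at an unadjusted limma p under 0.05. All 5 were higher with the ketone ester than under semaglutide alone by limma, although edgeR called 1 and DESeq2 0. Their median log2 fold changes were -2.41 and 3.93 in the 2 comparisons, against -1.99 and 1.74 for the members. Summed, they ran from 1356 to 2291 normalized counts with vehicle, from 50.5 to 3148 with semaglutide and from 2849 to 5558 with both agents. Their mean log2 difference from the vehicle mean was -4.82, -5.08 and -3.09 in semaglutide mice 14, 16 and 17, and 0.93 and -0.29 in semaglutide mice 13 and 15. Of the last 2, mouse 13 had the highest Tnmd, Comp and Cilp2 of the semaglutide group (27.1, 101 and 17.4), and mouse 15 had 10.0, 15.6 and 4.44. Their part in the results was not tested.

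At the myotendinous junction, where fibre ends attach to tendon, the picture was mixed. Of 10 listed genes 3 were lower and 2 higher under semaglutide, against 13.9% and 12.5% of all genes. Col22a1, a collagen of this junction, averaged 458 ± 53.4 with vehicle (SD, n = 5), 189 ± 78.3 with semaglutide (SD, n = 5) and 481 ± 103 with both agents (SD, n = 3). Its log2 difference was -1.36 under semaglutide (SE 0.22, limma adjusted p = 7.0e-04) and 1.41 when the ketone ester was added (SE 0.25, limma adjusted p = 0.0021). Vcl (vinculin) and Lama2 (a laminin chain) had log2 differences of -0.43 and -0.36 under semaglutide. Ankrd1, a stress-responsive gene of muscle, and Nrap were higher by 1.44 and 0.90. With the ketone ester added, 2 of the 10 were higher and 2 lower than under semaglutide alone, against 10.0% and 10.7% of all genes. Besides Col22a1, Vcl was higher, by 0.41 (limma adjusted p = 0.044). Nrap and Xirp1 were lower, with log2 differences of -1.30 and -1.56 (limma adjusted p = 0.014 and 0.023).

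Transforming growth factor beta is known to act upstream of tendon genes. A longer list of tendon gene regulators had 22 genes tested, of which 6 were higher and 2 lower under semaglutide than in vehicle-treated mice. With the ketone ester added, 1 of the 22 was higher and 3 were lower than under semaglutide alone, against 10.0% and 10.7% of all genes. The 10 genes of the transforming growth factor beta pathway were taken from this list after values were seen. Of these 10, 4 were higher and 2 lower, against 12.5% higher and 13.9% lower over all genes. The higher ones were the receptor genes Tgfbr1, Tgfbr2 and Tgfbr3, with log2 differences of 0.49, 0.52 and 0.53 (limma adjusted p = 0.015, 0.012 and 0.019), and the co-SMAD gene Smad4, with 0.42 (SE 0.087, limma adjusted p = 0.0037). Smad2 and Smad3, which carry the receptor signal, had log2 differences of -0.53 (SE 0.099, limma adjusted p = 0.0018) and -1.09 (SE 0.27, limma adjusted p = 0.0095). The ligand genes Tgfb1, Tgfb2 and Tgfb3 and the inhibitory Smad7 did not pass, with log2 differences from -0.025 to 0.052. With the ketone ester added, 1 of the 10 was higher than under semaglutide alone, Smad2 by 0.49 (SE 0.11, limma adjusted p = 0.0093). Smad4 and Tgfbr1 were lower, with log2 differences of -0.55 (SE 0.10, limma adjusted p = 0.0023) and -0.57 (SE 0.16, limma adjusted p = 0.020). Of the other genes of the 10 changed under semaglutide, Smad3 differed by 0.18, Tgfbr2 by 0.14 and Tgfbr3 by -0.40 (limma adjusted p = 0.72, 0.56 and 0.12). Outside the 10, Tcf3 and Tcf12 were higher under semaglutide than with vehicle, by 0.41 and 0.21 (limma adjusted p = 0.022 and 0.044). Eya1 was lower with the ketone ester added, by a log2 difference of -0.31 (limma adjusted p = 0.046).

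Outside the 6, Fmod was the gene whose levels were most like theirs by Pearson's correlation. Likeness was Pearson's r over the 13 mice between a gene's log2 values and the mean of the members' standardized values. It was 0.98 for Fmod, which encodes fibromodulin, a proteoglycan that binds collagen fibrils, and 0.97 without the 2 mice farthest from the median of that mean, semaglutide mice 16 and 17. Fmod stood at 453, 3460.0, 2798, 3823 and 4265 in vehicle mice 1 to 5, at 1463, 801, 382, 288 and 247 in semaglutide mice 13 to 17 and at 1998, 2341 and 2359 in semaglutide + ketone ester mice 19, 21 and 22. Fmod was picked for this likeness, so its order of mice is a description only.

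The next most alike were Myoc, Fndc1, Olfml3, Col12a1, Gas1, Pcolce, Rcn3, Chad and Clec3b, with r from 0.96 to 0.93. Pcolce encodes an enhancer of procollagen processing and Col12a1 a collagen found on the surface of fibrils. After subtracting group means the closest 10 shared 6 genes with these, with Fmod at 0.99. By Spearman's rho over all mice 7 of the 10 were shared and Col5a1 came first, at 0.97, while Fmod was the sixth, at 0.95. With group means subtracted, Serpinf1 came first by rho, at 0.97, and Fmod followed at 0.96. For single members, Tnmd was closest to Angptl1, Col1a2 and Col1a1 (r = 0.97 each), Thbs4 and Comp each to Fmod (0.98 and 0.99), Cilp2 to Olfml2b (0.98) and Mkx to H2afy2 (0.90). Scx was closest to Tnpo3, Rab35 and Map3k4 (0.94, 0.92 and 0.89), none of which was listed here as a tendon gene.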

How the data were processed

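The authors prepared stranded mRNA libraries from frozen gastrocnemius samples, 1 per mouse, and aligned paired-end reads to mm10 with DRAGEN. The paper does not say which part of the muscle was used. DESeq2 is also named in the submitters' processing notes, and the counting program and annotation are not given in the sources used here. Their deposited values are normalized counts per gene (signal), of which 100% were whole multiples of 1 step per mouse (tolerance 0.05), so that whole reads were recovered for count tests. All mice carry the same batch label.

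Genes with a mean of at least 10 were tested with limma 3.58.1 (trended prior variance, all 3 groups, no covariates) on log2(normalized count + 1), 2-sided, with Benjamini-Hochberg adjustment. The script was tested on simulated data. edgeR 4.0.16 and DESeq2 1.42.0 on recovered reads, other pseudocounts, filters and scalings, and leaving out each mouse were the alternatives. Gene positions and exon lengths came from GENCODE M21 and promoters from RefSeq, both on GRCm38. Exon length was the merged length of all annotated transcripts. Named genes were the members, genes overlapping them, up to 4 genes with the smallest p among those called in each list, genes at 0, and the genes most like the members. Some other genes of the lists, among them genes that did not pass, were named as well. The members and lists were chosen with earlier results of these data known. Counting error alone is larger for values of a few reads, and 3 reads or fewer were found for Tnmd and Cilp2 in 1 mouse each. Of a longer list of tendon gene regulators, the transforming growth factor beta genes are described gene by gene, a subset taken after values were seen. Of its other genes only those called are named.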

Additional observations from a re-analysis of the deposited data

Results flagged for a closer look

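In groups of 5 mice, a mouse was singled out when its gap to the nearest other mouse, on the log2 scale, exceeded 0.71 of the whole range (Dixon's test). Of 12 groups examined (6 genes, vehicle and semaglutide), 6 held such a mouse, while chance singles out about 1 in 20. Vehicle mouse 1 was the low mouse in 5 of them. Its normalized counts were 26.3 for Tnmd, against 94.0 to 147 in the other vehicle-treated mice, 3.43 for Mkx (20.47 to 23.3), 704 for Thbs4 (1661 to 2205), 11.4 for Comp (241 to 468) and 13.7 for Cilp2 (69.3 to 109). These 5 genes come from 1 library and are not independent of each other. In the remaining group, semaglutide mouse 17 had 2.24 for Mkx, against 11.7 to 18.0 in the other semaglutide-treated mice, a value that rests on 3 reads.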

How the results depend on the processing

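Over 26 other settings, Tnmd and Cilp2 stayed called in the comparisons of semaglutide with vehicle and of semaglutide + ketone ester with semaglutide, and Thbs4 in the first. Comp against vehicle was called in 18 and in the second comparison in 5, Thbs4 in the second in 14 and Scx in the second in 22. The number of members called between semaglutide and vehicle ranged from 3 to 4 over the leave-out settings, and that between semaglutide + ketone ester and semaglutide from 2 to 5, against 4 with all mice. It was 2 without semaglutide + ketone ester mouse 21 or 22, and 5 without vehicle mouse 1 or semaglutide mouse 13. Between semaglutide + ketone ester and vehicle it was 0 throughout, and the sign of 4 uncalled log2 differences depended on single vehicle-treated mice. Over the leave-out settings these ranged from -0.20 to 0.45 for Tnmd, from -0.037 to 0.58 for Mkx, from -1.17 to 0.14 for Comp and from -0.64 to 0.081 for Cilp2. With vehicle mouse 1 and semaglutide mouse 13 both left out, a setting chosen after seeing the data, Tnmd was at -0.20 and Mkx at -0.037. Rescaling to equal totals moved the median of all genes to 0.17 and -0.24 in the first 2 comparisons and their higher and lower calls to 3351 and 985 and to 637 and 3715, and called 4 and 3 members. No paired analysis was possible because the groups share no mouse numbers. With 3 mice in 1 group and no more than 21 reads of Mkx in any library, counting error limits this gene in particular.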
